A study of Mus musculus with 6 samples.

Results

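The 40 genes described here are the subunits, inhibitors and regulators of the transcription factor NF-kB, together with the immediate early genes that answer the same stimuli within minutes. They were chosen by name, from a list that groups them by role, out of 46078 gene identifiers in the deposited table, and all 40 were found there. The cells were splenic regulatory T cells (Treg cells) of C57BL/6 mice aged 6 to 8 weeks. Mice labelled WT carried the DEREG transgene, a reporter in which Foxp3 control sequences drive eGFP and a diphtheria toxin receptor, and no Cre is named for them. Mice labelled MAZR-cKO carried the same reporter, floxed alleles of MAZR (gene Patz1, a zinc finger transcription factor) and CD4-cre, which is active in the whole T cell lineage and not in Treg cells alone. Sorted CD4+ eGFP+ cells, 800000 to 2000000 for each RNA preparation, gave 3 RNA-seq libraries per label. The labels do not say whether a library was made from 1 animal or from a pool, so p-values measure only the spread between these libraries.

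NF-kB dimers wait in the cytoplasm, bound by IkB proteins, until a receptor signal triggers the destruction of the IkB protein and the dimer enters the nucleus. Among its targets are its own brakes, such as the IkB gene Nfkbia and the ubiquitin editing enzyme gene Tnfaip3. Immediate early genes, among them Fos and Jun, which encode the AP-1 transcription factor, need no new protein synthesis to be switched on, and their mRNAs are short-lived. They answer antigen receptor signals, cytokines and also the handling of cells during isolation. In Treg cells the NF-kB subunits c-Rel and RelA are known to be needed for development and function.

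Promoters are shown first for members whose levels varied together between libraries (Fos, Ppp1r15a and Tnfaip3) and for NF-kB members whose levels did so less or hardly at all (Nfkbia and Nfkb2). Each is the RefSeq sequence of 250 bases before an annotated start site (GRCm38.p6), and capitals mark matches on either strand to the AP-1 site TGANTCA, the cAMP response element core TGACG, the CArG box or the kB consensus, the last 2 named only. The palindrome TGACGTCA counts as a pair of overlapping core matches. Tnfaip3 has a further start, not shown, whose window (chr10:19011964-19012213) held no match. Nfkb2 has further starts, also not shown, whose windows held matches.
Fos, chr12:85473640-85473889, plus strand: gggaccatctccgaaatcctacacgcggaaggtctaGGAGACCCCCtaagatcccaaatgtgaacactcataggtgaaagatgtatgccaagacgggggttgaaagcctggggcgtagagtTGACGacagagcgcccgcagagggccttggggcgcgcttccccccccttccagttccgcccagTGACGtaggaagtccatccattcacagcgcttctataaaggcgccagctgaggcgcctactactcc
Ppp1r15a, chr7:45526269-45526518, minus strand: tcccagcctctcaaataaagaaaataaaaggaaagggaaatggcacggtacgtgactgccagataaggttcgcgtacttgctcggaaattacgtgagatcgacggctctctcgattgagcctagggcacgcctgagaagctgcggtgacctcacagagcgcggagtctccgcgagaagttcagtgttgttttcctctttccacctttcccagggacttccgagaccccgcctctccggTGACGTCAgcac
Tnfaip3, chr10:19015411-19015660, minus strand: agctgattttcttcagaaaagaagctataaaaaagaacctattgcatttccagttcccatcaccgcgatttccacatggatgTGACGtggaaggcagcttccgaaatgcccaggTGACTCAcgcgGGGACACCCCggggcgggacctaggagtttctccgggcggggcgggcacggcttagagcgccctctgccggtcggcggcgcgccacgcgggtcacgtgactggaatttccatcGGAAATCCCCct
Nfkbia, chr12:55492648-55492897, minus strand: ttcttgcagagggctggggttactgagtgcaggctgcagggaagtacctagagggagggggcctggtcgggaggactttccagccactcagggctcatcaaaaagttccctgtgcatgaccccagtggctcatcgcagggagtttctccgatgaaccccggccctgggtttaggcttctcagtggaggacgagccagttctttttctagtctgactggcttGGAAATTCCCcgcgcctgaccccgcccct
Nfkb2, chr19:46304487-46304736, plus strand: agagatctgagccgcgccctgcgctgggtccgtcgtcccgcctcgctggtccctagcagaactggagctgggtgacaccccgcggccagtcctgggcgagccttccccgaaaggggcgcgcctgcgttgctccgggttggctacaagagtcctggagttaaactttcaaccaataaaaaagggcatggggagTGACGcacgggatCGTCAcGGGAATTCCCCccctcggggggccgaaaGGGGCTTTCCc

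Sequences were matched for 33 of the 40 members, at 38 start sites, and for 32851 start sites over the whole RefSeq table. The kB consensus was found at 14 of the 38 starts, against 3.9% of all starts, in 12 members that include Nfkbia, Nfkbie, Nfkb2, Rel and Tnfaip3. The cAMP response element core was found at 16 of the 38 starts, against 17.8% of all, and the AP-1 site at 4, against 6.75%. Only the Dusp5 and Zfp36 starts held a CArG box, the motif of serum response factor, which 1.47% of all starts held. A match describes these letters in this window and is not evidence of binding. Sites further upstream, of Fos as of any member, were not searched, so a missing match does not mean a missing site.

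The sorted cells carried their defining markers. Foxp3, Cd4, Il2ra, Ikzf2, Ctla4 and Cd3e together reached 4820 to 5234 CPM (counts relative to library size in the authors' table) in WT libraries and 4791 to 5146 CPM in those labelled MAZR-cKO. Patz1, the targeted gene, went against its label, with 71.6, 74.9 and 67.6 CPM in WT 1, 2 and 3 but 177, 181 and 179 CPM in MAZR-cKO 1, 2 and 3. It rose with the label, by 1.32 ± 0.05 (SE) on the log2 scale in limma (Benjamini-Hochberg adjusted p = 3.72e-06). The value covers the whole gene and does not show which exons were read, so the groups are named by label throughout. Depth was 15481565 to 28184456 reads per library, with 7 to 29 reads behind Ier3, 3 to 8 behind Atf3 and at least 60 behind each of the other members. Makeup by sex also differed: 4 genes of the Y chromosome (Uty, Kdm5d, Ddx3y and Eif2s3y) summed to 164 to 276 CPM in WT libraries and to 116, 0.480 and 199 CPM in MAZR-cKO 1, 2 and 3. Xist, a long RNA of female cells, was at 561, 774 and 355 CPM in WT 1, 2 and 3 and at 1145, 1552 and 605 CPM in MAZR-cKO 1, 2 and 3. Every library but MAZR-cKO 2 thus held RNA of both sexes. A fit with the log2 of the Y-linked sum as a term, on which MAZR-cKO 2 stands far from the rest, is given beside the comparison.

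In the comparison of the labels, no member passed the test. With limma on log2(CPM + 0.5), 0 of 38 tested members had an adjusted p under 0.05, where 0.0415% of the 12040 genes tested did (5 genes, all higher). None of the 38 had an unadjusted p under 0.05 either, against 5.25% of all genes. On the recovered reads, edgeR called 0 of 39 members and 0.0386% of genes, and DESeq2 0 of 40 members and 0.221% of genes. At an unadjusted p under 0.05, edgeR had Ppp1r15a and Fosb higher (3.04% of genes) and DESeq2 Nfkbia (1.1%). The median log2 fold change was 0.044 over the tested members and -0.014 over all genes, and 28 members lay above 0 against 43.9% of all genes. With the Y-linked sum as a term in limma, 13 of 38 lay above 0 against 44.2% of all genes, and the median over the members was -0.022. The estimates of the most variable members shrank in that fit, to 0.03 ± 0.35 (SE) for Fos, 0.06 ± 0.41 for Fosb, 0.20 ± 0.29 for Jun, 0.14 ± 0.51 for Klf4, 0.27 ± 0.23 for Ppp1r15a and 0.06 ± 0.14 for Tnfaip3. Nfkbia moved to 0.04 ± 0.06, Myc to -0.07 ± 0.10 and Junb to -0.05 ± 0.12. Adjusted p-values of the members from limma ran from 0.914 to 0.998. Libraries with the same number on the 2 labels deviated together and were taken as pairs. With the pair as a block limma called 46 genes (0.382%) and still 0 members, and 10 members were higher at an unadjusted p under 0.05 (3.98% of all genes), with Myc the 1 lower (6.66%). The 10 were Fos, Fosb, Jun, Junb, Ier2, Ppp1r15a, Klf6, Zfp36, Nfkbia and Tnfaip3. Standard errors and adjusted p of single members below are from limma without the block unless it is named. With the block the SE was 0.20 for Fos, 0.17 for Ppp1r15a and 0.07 for Myc, whose adjusted p of 0.188 was the smallest. All 3 pairs had the same direction for 4 members that were higher, Ier2, Zfp36l1, Rel and Cyld (12.9% of all genes), and for 5 that were lower, Myc, Nfkb1, Nfkbib, Nfkbie and Bcl3 (19.2%).

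**Figure D1:**
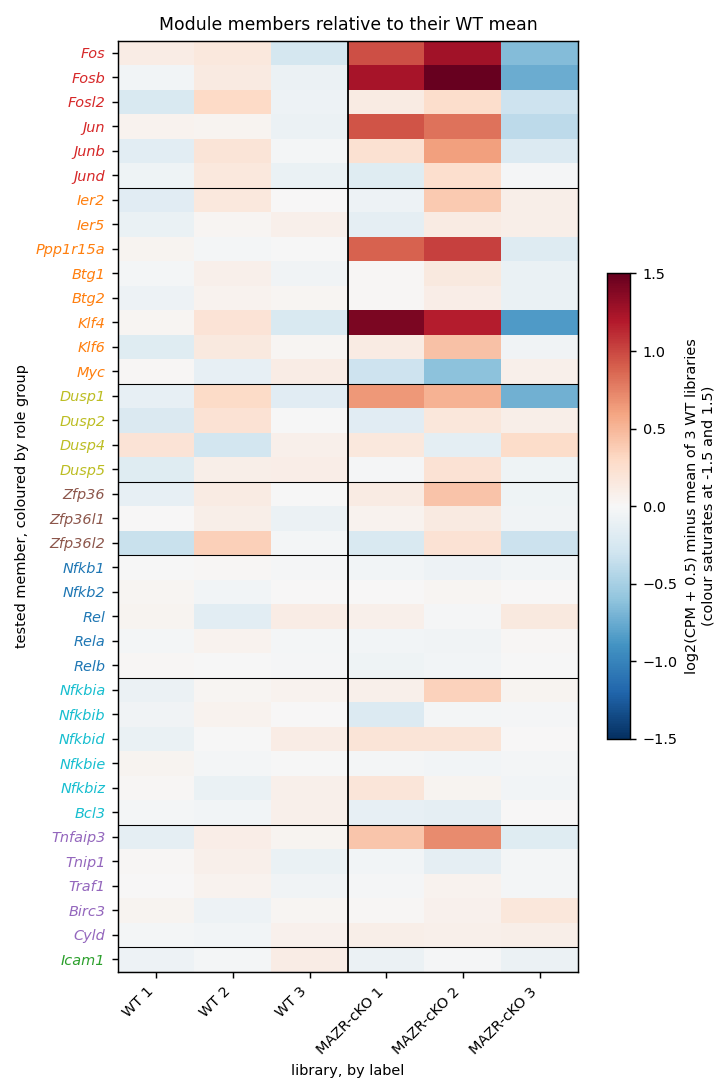
Level of the 38 tested members (rows, coloured by role group) in the 6 libraries (columns), as log2(CPM + 0.5) minus the mean of the 3 WT libraries, with colour saturating 1.5 units above and below 0. Fos, Fosb, Jun, Ppp1r15a, Klf4, Dusp1 and Tnfaip3 are above the WT mean in the libraries labelled MAZR-cKO 1 and 2 and below it in MAZR-cKO 3, while the NF-kB subunit rows are near 0 in every column.

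The AP-1 subunits varied most. Fos (ENSMUSG00000021250, GRCm38 chr12:85473890-85477273), whose product pairs with Jun proteins, stood at 87.6, 90.3 and 67.2 CPM in WT 1, 2 and 3 against 159, 195 and 51.5 CPM under the MAZR-cKO label, in the same order. The first and second MAZR-cKO libraries were thus above every WT library and the third was below every one, so the groups overlapped. Relative to the WT mean of 81.7 ± 12.6 CPM (SD, n = 3), these 3 libraries held 1.95, 2.38 and 0.630 times as much Fos. The group mean of 135 ± 74.7 CPM (SD, n = 3) therefore described none of them, and the log2 fold change was 0.53 ± 0.41 (SE; limma adjusted p = 0.922).

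Fosb, a close relative of Fos (chr7:19302696-19310051, minus strand), ran from 11.2 to 13.2 CPM in the WT libraries and stood at 29.0, 56.2 and 6.94 CPM in MAZR-cKO 1, 2 and 3. It showed the same order of libraries on a wider scale, with an 8.10-fold range and the largest spread within a label of any tested member (SD 1.06 on the log2 scale). Its log2 fold change, 0.89 ± 0.59 (SE), was the largest of the 38 and did not pass (limma adjusted p = 0.914). Jun (chr4:95049034-95052222, minus strand), the founding AP-1 subunit, was at 123, 122 and 112 CPM in WT libraries and at 229, 210 and 90.5 CPM in those labelled MAZR-cKO. Again 2 libraries lay above and 1 below all WT libraries, at 1.92, 1.76 and 0.761 times the WT mean (log2 fold change 0.46 ± 0.29, SE; limma adjusted p = 0.914).

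Junb, the AP-1 subunit with the highest level of all members per kilobase of exon (297 CPM per kb), kept that order with smaller distances. WT libraries held 558, 710 and 610 CPM, and MAZR-cKO 1, 2 and 3 held 728, 951 and 540 CPM. MAZR-cKO 1 exceeded WT 2 only narrowly, and the log2 fold change was 0.21 ± 0.18 (SE; limma adjusted p = 0.926). Junb overlaps Prdx2 on the opposite strand, whose level was 11.3% of that of Junb. The strand setting of the counting is not given in the sources used here, so a share of these reads is uncertain. Jund, at 335 to 402 CPM in WT libraries and 316, 427 and 354 CPM in the others, and Fosl2, at 10.3 to 15.1 and 9.67 to 14.7 CPM, did not show the order. Atf3, a stress-induced partner of Jun, was under 0.5 CPM in every library and was not tested.

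**Figure D2:**
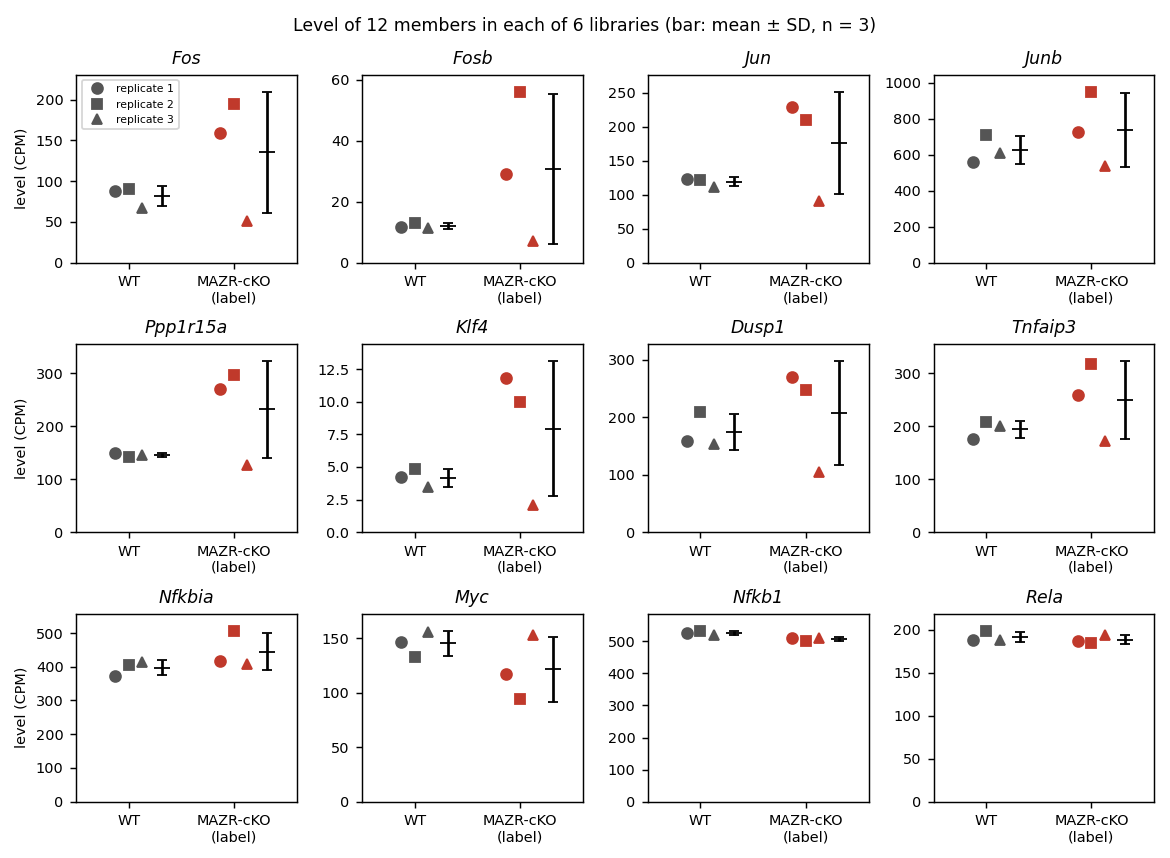
Level in CPM of 12 members in each library, grey for WT and red for the MAZR-cKO label, with symbols for the replicate number and a bar for the mean ± SD (n = 3). For the 8 genes of the upper 2 rows the circle and square of the MAZR-cKO label lie above and the triangle below all WT symbols; for Nfkb1 and Rela the 6 symbols nearly coincide in height.

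Among the other immediate early regulators, Ppp1r15a and Klf4 followed Fos. Ppp1r15a (chr7:45522916-45526268, minus strand) encodes GADD34, which directs a phosphatase to a translation initiation factor and so restores protein synthesis after stress. Its WT libraries were almost equal, at 150, 143 and 146 CPM, whereas MAZR-cKO 1, 2 and 3 gave 270, 298 and 128 CPM. Here the WT spread was 3.44 CPM (SD, n = 3) and the spread under the other label 91.2 CPM. The log2 fold change of 0.57 ± 0.26 (SE) had the smallest unadjusted p among the members, 0.057 in limma, and an adjusted p of 0.914.

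Klf4, a zinc finger factor that restrains T cell proliferation, was low, at 3.47 to 4.83 CPM in WT libraries and 11.8, 9.97 and 2.08 CPM in MAZR-cKO 1, 2 and 3. These values rest on 60 to 190 reads each, and the 5.67-fold range is the second largest among tested members. Myc, the growth-promoting transcription factor, ran the other way, at 147, 133 and 156 CPM in WT libraries and 117, 94.3 and 153 CPM in the others. The third MAZR-cKO library lay inside the WT range while the others lay below it, and the member was lower in each of the 3 pairs. Its log2 fold change was -0.28 ± 0.15 (SE; limma adjusted p = 0.914).

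Ier2, a nuclear regulator induced by growth factors, was at 134, 167 and 150 CPM in WT libraries and at 142, 197 and 160 CPM in those labelled MAZR-cKO. It was higher in each pair, by ratios of 1.06, 1.18 and 1.06, and the groups overlapped (log2 fold change 0.14 ± 0.12, SE; limma adjusted p = 0.926). Btg1, an antiproliferative gene that recruits mRNA deadenylases, was the most abundant of this group by reads and hardly varied, from 487 to 532 CPM in WT libraries and from 469 to 560 CPM in the others. Btg2, its relative, stayed within 338 to 390 CPM over all 6 libraries, Ier5 within 204 to 243 CPM and Klf6 within 189 to 292 CPM. Ier3, at 0.356 to 1.55 CPM, did not reach the level for testing.

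The dual-specificity phosphatases switch off MAP kinases, the enzymes upstream of AP-1. Dusp1, which acts on JNK, p38 and ERK, was at 158, 210 and 153 CPM in WT libraries and at 270, 248 and 104 CPM in MAZR-cKO 1, 2 and 3. The order was that of Fos, and the log2 fold change was 0.15 ± 0.31 (SE; limma adjusted p = 0.963). Ergic1 overlaps Dusp1 on the opposite strand at 59.4% of its level, so the Dusp1 values are uncertain. Dusp2 (191 to 258 CPM in WT, 197 to 250 CPM in the others), Dusp4 (53.8 to 75.3 and 58.9 to 79.2 CPM) and Dusp5 (80.7 to 98.0 and 87.6 to 107 CPM) had overlapping ranges and no such order.

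The ZFP36 proteins bind AU-rich mRNAs, among them immediate early and cytokine mRNAs, and speed their decay. Zfp36l1 was the most abundant of the 3 by reads, at 641, 674 and 597 CPM in WT libraries and 658, 701 and 612 CPM in the others. It was higher in every pair by 1.03, 1.04 and 1.03 times, a difference smaller than the spread between WT libraries (log2 fold change 0.04 ± 0.07, SE; limma adjusted p = 0.938). Zfp36 ranged from 351 to 514 CPM and Zfp36l2 from 399 to 642 CPM over all libraries.

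The 5 NF-kB subunits were nearly constant. Nfkb1 (ENSMUSG00000028163, chr3:135584655-135691547, minus strand), which encodes p105 and its product p50, was at 525, 533 and 519 CPM in WT libraries and at 511, 500 and 512 CPM in those labelled MAZR-cKO. It was the only member whose MAZR-cKO values all lay below its WT values, a feature of 5.74% of all genes, and the difference was small (log2 fold change -0.05 ± 0.04, SE; limma adjusted p = 0.926). Rela, the main activating subunit, was at 189, 199 and 188 CPM and at 187, 185 and 194 CPM. Rel, which encodes c-Rel, varied more, at 183, 159 and 192 CPM and at 187, 176 and 196 CPM.

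Both subunits of the alternative pathway were as even. Nfkb2, the precursor of p52, stood at 198, 189 and 194 CPM in WT libraries and at 194, 198 and 194 CPM in the others. Relb, its partner, stood between 99.2 and 102 CPM and at 95.7, 97.7 and 99.8 CPM. The fold changes of Rela, Rel, Nfkb2 and Relb lay between -0.04 and 0.07 on the log2 scale, with limma adjusted p from 0.926 to 0.985, and for Rela, Rel and Nfkb2 the sign depended on single libraries. Per kilobase of exon the order of mean levels was Rela at 62.0, Nfkb1 at 42.9, Nfkb2 at 42.4, Relb at 25.5 and Rel at 24.4 CPM per kb, with Nfkb1 and Nfkb2, and Relb and Rel, next to each other.

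Of the inhibitors, Nfkbia (ENSMUSG00000021025, chr12:55489410-55492647, minus strand), which encodes IkB alpha, was second among all members per kilobase of exon (262 CPM per kb). WT libraries held 374, 406 and 414 CPM, and MAZR-cKO 1, 2 and 3 held 418, 507 and 410 CPM. The second MAZR-cKO library stood above the rest and the third lay within the WT range (log2 fold change 0.16 ± 0.08, SE; limma adjusted p = 0.914). Nfkbid, a nuclear IkB protein needed for Foxp3 induction in developing Treg cells, was at 101 to 118 CPM in WT libraries and at 125, 125 and 110 CPM in the others.

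Nfkbie stayed between 80.0 and 84.9 CPM over all libraries, the least variable inhibitor, and Nfkbiz between 133 and 162 CPM. Bcl3, which turns p50 and p52 dimers into activators or stable repressors, was lower in each pair, at 84.5 to 92.0 CPM in WT libraries and 79.6 to 87.2 CPM in the others. Nfkbib, at 44.8 to 53.5 CPM, overlaps Sirt2 on the opposite strand, which was at 184% of its level, so its values are uncertain.

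The ubiquitin and signalling regulators split into Tnfaip3 and the rest. Tnfaip3 (ENSMUSG00000019850, chr10:19000910-19015657, minus strand), which encodes A20, a brake induced by NF-kB, was at 176, 208 and 200 CPM in WT libraries and at 260, 318 and 172 CPM in MAZR-cKO 1, 2 and 3. It repeated the order of Fos, with 1.34, 1.63 and 0.883 times the WT mean (log2 fold change 0.32 ± 0.19, SE; limma adjusted p = 0.914). Its binding partner Tnip1 ranged over 336 to 380 CPM in WT libraries and 327 to 351 CPM in the others.

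Traf1, a receptor adaptor and NF-kB target, was the most abundant of this group by reads, at 358, 369 and 344 CPM in WT libraries and 352, 370 and 351 CPM in those labelled MAZR-cKO. Birc3, a ubiquitin ligase, ranged from 156 to 184 CPM. Cyld, a deubiquitinase that opposes NF-kB, was the only member whose MAZR-cKO values (299, 296 and 298 CPM) all lay above its WT values (276, 274 and 296 CPM), as did 5% of all genes (log2 fold change 0.08 ± 0.05, SE; limma adjusted p = 0.914). Icam1, an adhesion molecule gene activated by NF-kB, was at 109, 112 and 123 CPM and at 108, 114 and 108 CPM.

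**Figure D3:**
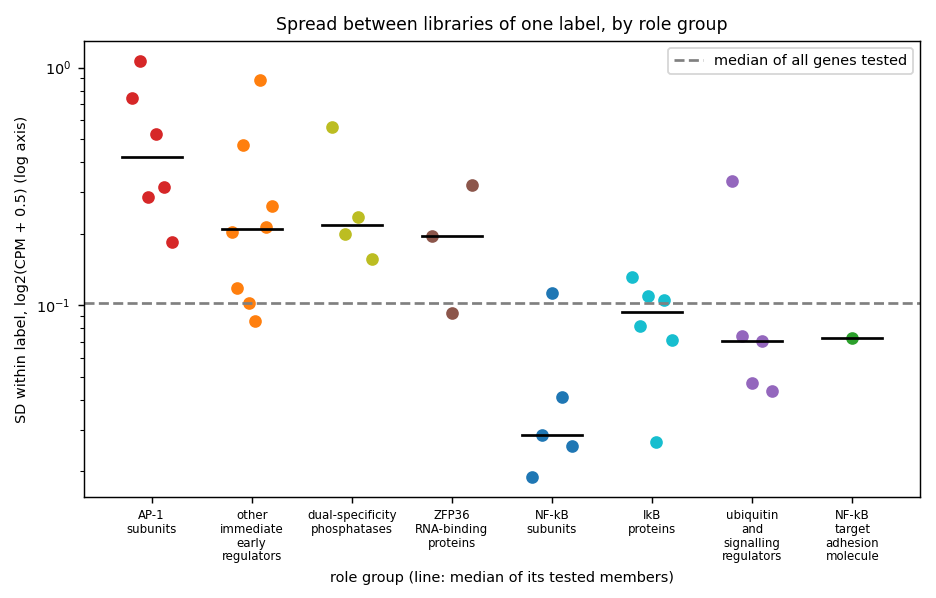
Standard deviation of log2(CPM + 0.5) between libraries of the same label (log axis) for each tested member, by role group, with a line at each group's median and a dashed line at the median of all genes tested. AP-1 subunits all lie above the dashed line, with a median of 0.42, and 4 of the 5 NF-kB subunits lie below it, with a median of 0.028.

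The spread within a label thus differed widely between the role groups. The median SD on the log2 scale was 0.10 over all genes tested and 0.12 over the tested members. It was 0.42 for the 6 tested AP-1 subunits, 0.21 for the 8 other immediate early regulators, 0.22 for the 4 phosphatases and 0.20 for the 3 ZFP36 genes. For the NF-kB subunits it was 0.028, for the IkB proteins 0.094 and for the ubiquitin and signalling regulators 0.070. The spread was larger under the MAZR-cKO label than under WT for all 6 AP-1 subunits and all 8 other immediate early regulators, against 58.2% of all genes, and for 1 of the 5 NF-kB subunits. These are descriptions of 3 libraries per label.

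The shared order of libraries was counted after the values had been seen. The libraries labelled MAZR-cKO 1 and 2 above all WT libraries and MAZR-cKO 3 below all of them was found for 8 of the 38 tested members, which were Fos, Fosb, Jun, Junb, Ppp1r15a, Klf4, Dusp1 and Tnfaip3, and for 2.29% of all genes tested. The mirror order was found for none of the 38 and for 3.55% of all genes. MAZR-cKO 2 was the highest library for 17 of the 38 members (19% of all genes) and MAZR-cKO 3 the lowest for 11 (13.7%). Of the 8 members with the order of Fos, 7 had the core TGACG within 250 bases of a start, Jun being the exception. A kB match was found for 3 of them (Fos, Fosb and Tnfaip3). Among all 33 matched members the core was found for 15 and a kB match for 12, and over all starts at 17.8% and 3.9%. A member counts if any of its starts matched, whereas the shares over all starts count every start. Members without the order, such as Btg1, Btg2, Rel and Nfkb2, also had the core. The part of these motifs in the order was not tested.

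The order of Fos sets MAZR-cKO 3 apart. Calls of genes with that order in fits without this library restate the order and are not separate support. The third MAZR-cKO library decided which members were called. Without it, limma called Ppp1r15a (log2 fold change 0.96 ± 0.06, SE; adjusted p = 0.00054), Jun (0.88 ± 0.06; adjusted p = 0.0019) and Fos (1.12 ± 0.13; adjusted p = 0.031) higher, 3 of 38 members against 0.108% of all genes. On recovered reads, edgeR without that library called these 3 and Klf4, 4 of 39 members against 0.114% of genes. Without both libraries numbered 3, limma with the block called 13 members, 12 higher (1.2% of all genes) and Myc lower (1.11%). The 12 were Fos, Fosb, Jun, Junb, Ppp1r15a, Klf4, Klf6, Dusp1, Zfp36, Nfkbia, Nfkbid and Tnfaip3, and none was an NF-kB subunit. Leaving out any other single library left 0 members called, among them MAZR-cKO 1 (0.0332% of all genes called) and MAZR-cKO 2 (0.0415%), as did leaving out the first or second pair.

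**Figure D4:**
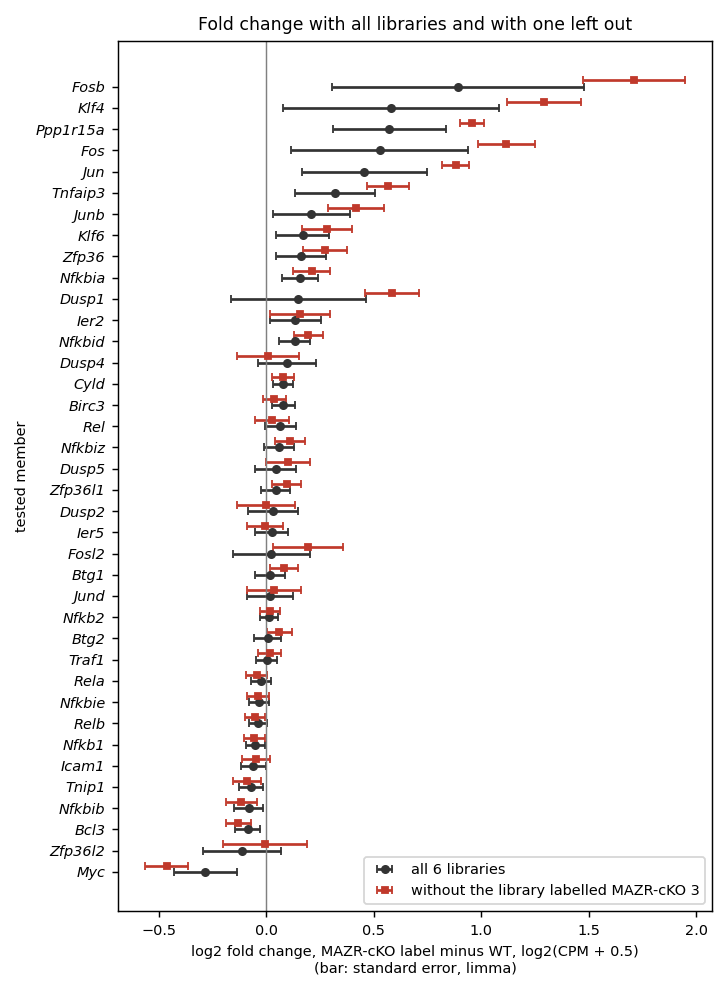
Log2 fold change of each tested member (MAZR-cKO label minus WT, on the log2(CPM + 0.5) scale) with its standard error from limma, from all 6 libraries in black and without the library labelled MAZR-cKO 3 in red. The estimate for Ppp1r15a moves from 0.57 to 0.96 and that for Fos from 0.53 to 1.12, with shorter bars, while those from Traf1 down to Nfkb1 move little.

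Summed B cell and myeloid markers moved with this order. The 5 B cell markers (Ms4a1, Cd79a, Cd79b, Cd22 and Pax5), none at 0 in any library, summed to 57.1, 59.4 and 65.5 CPM in WT 1, 2 and 3 and to 76.9, 78.1 and 48.5 CPM in MAZR-cKO 1, 2 and 3, and 3 of the 5 (Cd22, Cd79a and Pax5) showed the order singly. Cd79b, the most abundant of them by reads, did not, at 21.9, 24.2 and 25.0 CPM in WT libraries and at 21.4, 21.7 and 18.2 CPM, below all of these, in the others. The 8 myeloid markers, none at 0, summed to 68.9 to 85.4 CPM in WT libraries and to 113, 91.8 and 39.6 CPM. Lyz2 and Cd14 showed the order singly, Cd14 at under 1 CPM in every library, and the rest did not. Of the 6 tested, 4 had a log2 fold change below 0, and all 6 were lowest in MAZR-cKO 3. Adgre1 was highest in WT 1 (10.1 CPM), and S100a8 and S100a9 in WT 3 (1.79 and 2.41 CPM). The 4 NK cell markers summed to 17.3 to 29.0 CPM in WT libraries and 40.5, 26.0 and 18.3 CPM in the others, and the 4 plasma cell markers to 66.0 to 80.7 and 77.9, 86.7 and 58.8 CPM, none at 0. Neither sum had the full order, and most of the plasma cell sum was Prdm1, at 49.1 to 54.4 CPM. Ncr1, Mzb1 and Prdm1 showed the order singly, each by a narrow margin. Prdm1 was at 53.57 CPM in WT 2 and 53.59 CPM in MAZR-cKO 2. Mzb1 was at 1.73 CPM in WT 1 and 1.76 CPM in MAZR-cKO 2. Ncr1 was at 3.021 CPM in WT 3 and 3.017 CPM in MAZR-cKO 3. The 2 CD8 T cell markers (13.4 to 15.4 and 15.1 to 17.2 CPM) and the 4 globin genes of red cells (12.9 to 46.0 and 9.02 to 19.1 CPM) did not show the order. The part of these cells in the order of the members was not tested. In bulk libraries, more cells that express a gene and more of its RNA per cell cannot be told apart. MAZR-cKO 3 was also the deepest library.

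**Figure D5:**
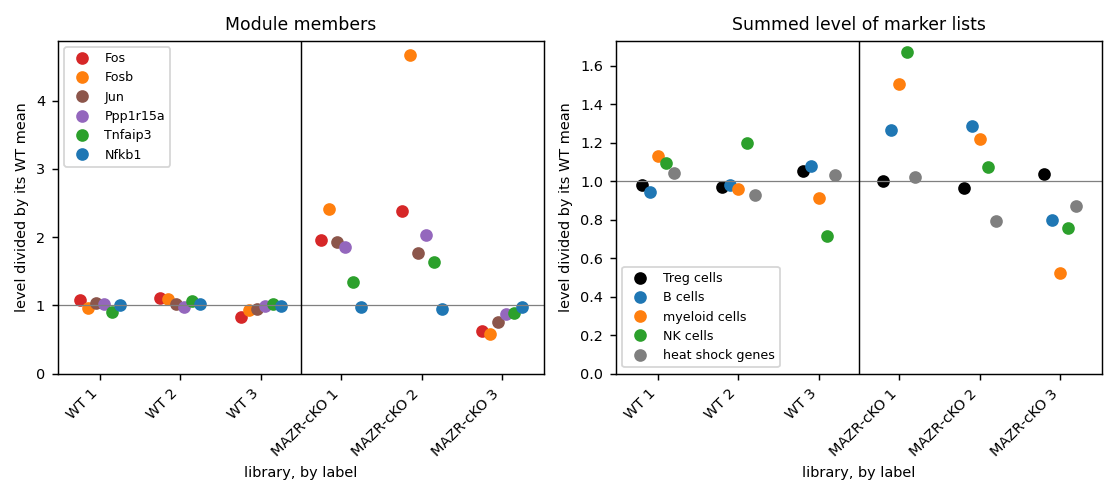
Level in each library divided by its mean over the 3 WT libraries, for 6 members at left and for the summed CPM of 4 marker lists and the heat shock genes at right; a vertical line parts the labels. B cell and myeloid sums, like Fos, Fosb, Jun, Ppp1r15a and Tnfaip3, are above 1 in MAZR-cKO 1 and 2 and below 1 in MAZR-cKO 3, while the Treg sum and Nfkb1 are near 1 throughout.

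Further immediate early genes outside the 40 varied as Fos did in part. Of 30 tested genes 0 were called. At an unadjusted p under 0.05 in limma stood 3 higher (2.33% of all genes) and 1 lower (2.92%), and the median log2 fold change was 0.047. The 3 with the smallest p were Gadd45b, a stress sensor (36.6 to 43.6 CPM in WT libraries and 56.7, 65.6 and 43.8 CPM in the others), Bhlhe40, a basic helix-loop-helix repressor (37.2 to 42.4 and 71.9, 53.8 and 43.5 CPM), and Egr2, a zinc finger factor (56.5 to 60.2 and 51.3, 39.8 and 56.1 CPM). Gadd45b and Bhlhe40 were higher in every MAZR-cKO library than in all WT libraries, as were 5% of all genes. Egr2 was lower in every one, as were 5.74% of all genes. The limma adjusted p of these 3 were 0.836, 0.914 and 0.914. Nr4a1, Nr4a2, Rgs2 and Gadd45a, 4 of the 30, showed the order of Fos, as did 2.29% of all genes. Socs3 showed the mirror order (3.55% of all genes), at 216 to 252 CPM in WT libraries and 209, 195 and 263 CPM in the others. Nr4a3 (57.0 to 69.5 and 63.5, 49.3 and 70.0 CPM) and Egr3 (27.4 to 32.7 and 26.5, 22.6 and 29.3 CPM) did not show the order of Fos. Nr4a1, an orphan nuclear receptor gene that reports antigen receptor signals, was at 239 to 254 CPM in WT libraries and at 370, 387 and 214 CPM in MAZR-cKO 1, 2 and 3, and was called without the last (limma adjusted p = 0.0058), as was Rgs2 (adjusted p = 0.031).

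The signalling genes upstream varied little. Of 27 tested genes that lead to NF-kB (kinases, adaptors and ligases) 0 were called, and the median log2 fold change was -0.001. At an unadjusted p under 0.05 in limma, 1 was higher (2.33% of all genes), Tab3, an adaptor of the kinase TAK1. Tank, an adaptor of TBK1, was the 1 lower (2.92%). Birc2, a relative of Birc3, had the next smallest p and was at 127 to 136 CPM in WT libraries and 137 to 144 CPM in the others. Malt1, a protease of antigen receptor signalling, was the 1 gene of this list with the order of Fos (2.29% of all genes), by narrow margins. It was at 142 to 160 CPM in WT libraries and 164, 162 and 142 CPM in MAZR-cKO 1, 2 and 3. Of 17 genes upstream of AP-1 and serum response factor 0 were called and 0 reached an unadjusted p under 0.05, the smallest being those of Map2k2, Srf and Elk3. The median SD within a label was 0.062 and 0.065 on the log2 scale for these lists, below that of all genes.

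Heat shock genes, which also answer the handling of cells, set other libraries apart. Hspa1b, an inducible chaperone gene, was at 11.5, 1.04 and 1.23 CPM in WT 1, 2 and 3 and at 47.3, 1.01 and 0.312 CPM in MAZR-cKO 1, 2 and 3, and its near-identical copy Hspa1a at 5.33, 0.384 and 0.0559 CPM and at 19.5, 0.373 and 0.0694 CPM. Both were highest in MAZR-cKO 1 and next in WT 1, and their part in the order of Fos was not tested. The sum of the list, most of it Hsp90ab1, was 2056 to 2313 CPM in WT libraries and 2261, 1758 and 1927 CPM in the others. Of 10 tested genes 0 were called and 2 were lower at an unadjusted p under 0.05 in limma (2.92% of all genes). These were Hsph1, at 69.6 to 81.9 CPM in WT libraries and 60.3 to 64.4 CPM in the others, and Hspa8, at 152 to 265 and 107 to 213 CPM. Hsp90ab1, next by p, was at 1302 to 1443 and 1098 to 1371 CPM. With the replicate block Hspa8, which has near-identical copies elsewhere in the genome, was called lower (limma adjusted p = 0.038).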

How the data were processed

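The authors deposited 1 table of CPM for 6 mouse libraries (RNeasy extraction and a TruSeq stranded mRNA kit, per the labels' protocols). The submitters' processing notes name FastQC, STAR 2.5.2b, Subread 1.5.1, R 3.4, edgeR and mm10, without roles or strand setting. All values above 0 were whole multiples of 1 read within 0.01 reads (100%), so reads were recovered. Of 46078 identifiers, 45229 were found in GENCODE M21 (GRCm38), which gave coordinates and exon lengths.

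Values of log2(CPM + 0.5), a scale that understates changes of low genes, were fitted with limma 3.58.1 in R 4.3.3 for genes with at least 1 CPM in at least 3 libraries. A call needed a p under 0.05 after Benjamini-Hochberg adjustment over all of them. edgeR 4.0.16 and DESeq2 1.42.0 on recovered reads were alternatives, and the scripts were tested on simulated data. Same-numbered libraries correlated in their deviations from the group means (0.399, 0.381 and 0.379, other combinations -0.21 to -0.16). Centring on the mean of 3 libraries pushes the other combinations below 0 once the same-numbered ones are above it, so the contrast is not separate support. The positive same-numbered correlations, and a code shared per number in the labels whose meaning is not given, are why they were taken as pairs. No library was a copy of another (chi-square per degree of freedom 5.39 to 19.0).

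The members and all gene lists were chosen with earlier results of these data known. Values per library are given by rule for the 3 members of smallest p with and without the block, the NF-kB subunits, the 3 most abundant, the 3 most variable and the most abundant of each role group. Jun, Tnfaip3, Dusp1 and Cyld were singled out after their values were seen. A further marker of the B cell list is not reported here.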

Additional observations from a re-analysis of the deposited data

How the results depend on the processing

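The median log2 fold change of the tested members stayed near 0 under all alternatives (-0.022 with the Y-linked sum as a term, -0.0068 to 0.069 with 1 library left out, 0.034 to 0.065 with 1 pair left out and the replicate block). The 5 genes called became 32 with DESeq2, 46 with the replicate block in limma and 46 with it in edgeR, 4 to 14 with 1 library left out, 8, 45 and 279 without pair 1, 2 and 3 and with the block, and 16 with edgeR without MAZR-cKO 3, the last chosen after seeing the data. Members called were 0 under every alternative with all libraries, 0 to 3 with 1 library left out, 0 to 13 with 1 pair left out and the block, and 4 with edgeR without MAZR-cKO 3. The replicate block changed no other call of a member. The Y-linked sum was 0.480 CPM in MAZR-cKO 2 and 116 to 276 CPM in the other libraries. A fit on it therefore cannot separate sex makeup from other features of MAZR-cKO 2, the highest library for 17 of 38 members. With the Y-linked sum as a term, 15 of 38 members' estimates changed sign, all from above to below 0, among them 8 of the 22 members followed under each alternative, to -0.017 for Ier2, -0.00029 for Nfkb2, -0.048 for Junb, -0.021 for Zfp36l1, -0.066 for Btg1, -0.052 for Dusp2, -0.030 for Traf1 and -0.13 for Dusp1, and the cause was not tested. With 1 library left out, the signs of Dusp1 (-0.10 to 0.59), Dusp2 (-0.075 to 0.14), Btg1 (-0.047 to 0.081), Traf1 (-0.024 to 0.027), Zfp36l1 (-0.0036 to 0.094), Nfkb2 (-0.0062 to 0.029), Rel (-0.011 to 0.12) and Rela (-0.044 to 0.0028) depended on single libraries. With 1 pair left out and the block, those of Dusp1 (-0.16 to 0.50), Dusp2 (-0.0030 to 0.070), Btg1 (-0.0089 to 0.056), Traf1 (-0.0098 to 0.014), Nfkb2 (-0.017 to 0.035), Rela (-0.058 to 0.016) and Icam1 (-0.098 to 0.0044) did. Klf4 fell under the filter at 5 CPM and has no value there.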
